A study of Caenorhabditis japonica with 3 samples.

Results

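The genes described here are 51 of the 3955 genes counted in single embryos of the nematode *Caenorhabditis japonica*, a species with females and males related to *C. elegans*. They were selected on their measured levels, high from 140 to 290 minutes after the 4-cell stage and low before and after. A gene was taken if it had exactly 1 3′ end peak, at least 50 counts per 1000000 reads (CPM) in the pooled embryos of 140 to 290 minutes, and there at least 2.5 times its pooled CPM in each of 3 other sets: the 1-, 2- and 4-cell embryos, those of 60 to 100 minutes and those of 300 to 430 minutes. They made up 2.31% of the 2210 single-peak genes that reached 50 CPM in that window. The levels that chose them are given as a description, without a test.

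The study sequenced 46 embryos, 1 for each cell stage or time, by CEL-Seq, which adds a barcode to the polyA RNA of each embryo and reads the 3′ ends of the transcripts from a pool. The early library held 16 embryos, of 1, 2 and 4 cells and of 10 to 130 minutes, the middle library 16 of 140 to 290 minutes and the late library 14 of 300 to 430 minutes, at steps of 10 minutes. No strain, mutation or treatment is named beyond these ages, females were cut open to obtain the embryos, and an age is the time of incubation since the 4-cell stage. Each library holds its own span of ages, so library and time cannot be told apart between libraries. Barcodes were given out in the order of age in the early library and in the reverse order in the middle library, so age and barcode cannot be told apart there. In the late library barcodes also rose with age, apart from barcodes 15 and 16 at 330 and 340 minutes. The columns at 330 and 340 minutes carry a mark that no source explains, and their ages are those of the deposited sheet.

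A nematode embryo starts with RNA laid down by the mother, and its own genome is switched on while cells divide and take on their fates. Transcripts that are made for a short time and then removed are a regular feature of this phase, and in *C. elegans* many known cases encode regulators of cell fate. The files give the genes of *C. japonica* by identifier only, so no function, name or sequence is stated for any of the 51. In whole embryos, fewer cells of a type and less RNA per cell cannot be told apart, and a CPM is a share of all listed reads, so it also moves with the other genes.

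An embryo had between 1719 and 454691 reads in these genes (median 61827), and 14 embryos below 0.25 of the median are called shallow. In the shallowest, a single read is worth 582 CPM. The embryos at 110, 120 and 130 minutes and those at 300, 310 and 320 minutes are all shallow, so both flanks of the middle window rest on few reads. Depth is uneven within the middle window too: the 4 deepest of its 16 embryos hold 64.7% of its reads and the embryo at 260 minutes alone 24.1%, which weights the pooled values towards these embryos.

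The 51 genes together took a small share of the reads of young embryos and several percent of those in the middle window. Their summed share was 0.187% of the pooled reads at 1 to 4 cells, 0.169% at 10 to 50 minutes, 0.457% at 60 to 100, 1.62% at 110 to 130, 3.36% at 140 to 180, 3.28% at 190 to 230, 4.06% at 240 to 290, 1.55% at 300 to 360 and 0.792% at 370 to 430 minutes. Most of this came from a pair of genes, CJA12881 and CJA07653, which held 59.2% of the member reads in the middle window. The other 49 genes summed to between 0.735% and 2.37% of the reads of each middle embryo, with a median of 1.41%, and to between 0.161% and 0.609% in the 14 late embryos. In the 13 early embryos up to 100 minutes no sum of the 49 was above 0.308%.

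**Figure D1:**
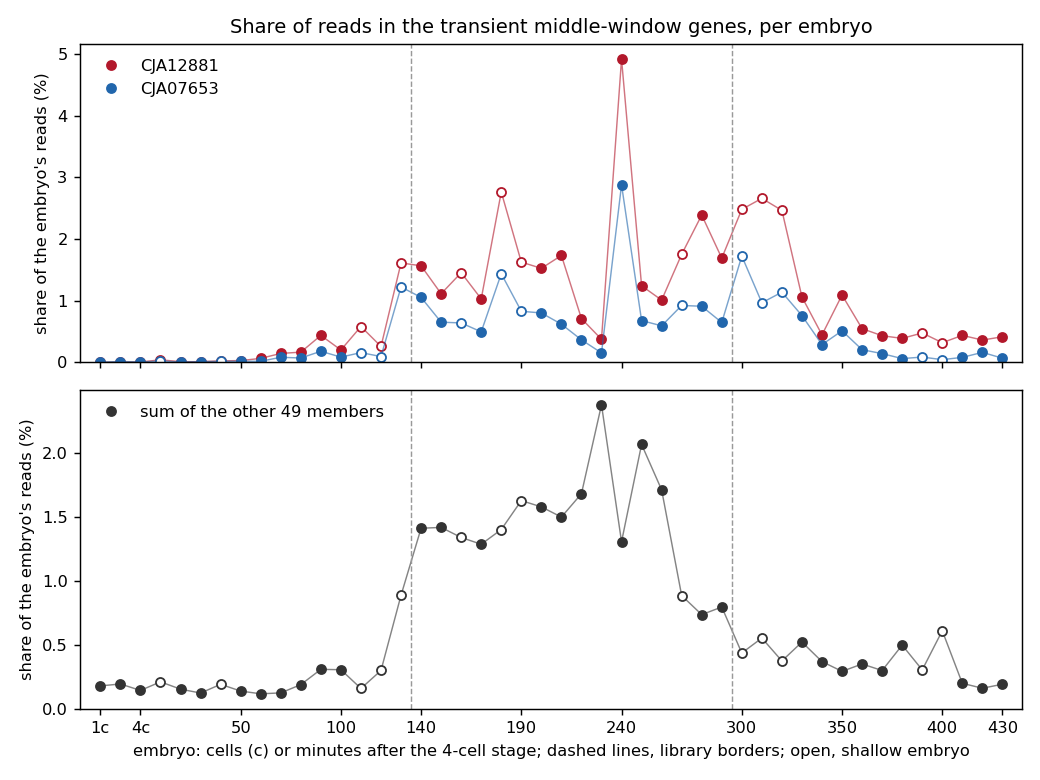
Share of each embryo's reads (%, linear axes from 0) against its stage, for CJA12881 and CJA07653 (upper panel) and for the sum of the other 49 genes (lower panel); each point is 1 embryo, open points are shallow embryos and dashed lines are the library borders. The 49 genes lie between 1.28% and 2.37% from 140 to 260 minutes and between 0.735% and 0.884% from 270 to 290 minutes, while the upper pair is still at 2.46% to 2.66% and 0.967% to 1.72% at 300 to 320 minutes.

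The sum of the remaining 49 was lower from 270 minutes on, while the leading pair stayed within its earlier range up to 320 minutes. The sum of the 49 lay between 1.28% and 2.37% in the 13 embryos of 140 to 260 minutes. In the embryos of 270, 280 and 290 minutes it was 0.884%, 0.735% and 0.795%, lower than in any of those 13, so the lower level lies inside the middle library, before its border. Single genes differed: set against 140 to 260 minutes, the pooled level at 270 to 290 was lower for 44 of the 49 and higher for 5, and under 0.5 of it for 28. CJA05168, named after its values were seen, was still at 534 and 440 CPM at 280 and 290 minutes. CJA12881 was at 1.75%, 2.39% and 1.69% in the same 3 embryos and at 2.48%, 2.66% and 2.46% at 300, 310 and 320 minutes. From 330 to 430 minutes it lay between 0.320% and 1.09%, and CJA07653 between 0.0446% and 0.759%. At 140 to 260 minutes CJA12881 ranged from 0.375% to 4.92% and CJA07653 from 0.154% to 2.88%. These ranges overlap those after 320 minutes, and the embryos of 300, 310 and 320 minutes are shallow. No time of leaving a high level is therefore given for the pair. These boundaries were drawn after the values were seen, and the courses are given as a description.

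By size, 6 genes had a pooled middle level of at least 1000 CPM, 9 lay between 300 and 1000, 23 between 100 and 300 and 13 between 50 and 100 CPM, around a median of 141 CPM. The median of the smallest ratio of the middle window to any of the other 3 sets was 3.71 (a set with no read counted as 3 reads), and the set with the smallest ratio was the late embryos for 26 genes, the 60- to 100-minute embryos for 15 and the 1- to 4-cell embryos for 10. The median member was seen in 14 of the 16 middle embryos, and none in fewer than 8. For no member did every middle embryo exceed every embryo of the other 3 sets. At the limit, CJA20328 (65.1 CPM in the middle window, 25.9 CPM late, ratio 2.52) and CJA11159 (197 against 77.0 CPM, ratio 2.56) were just inside. CJA13327 (186 against 75.2 CPM late, ratio 2.47) and CJA07848 (121 against 49.3 CPM late, ratio 2.46) were just outside.

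**Figure D2:**
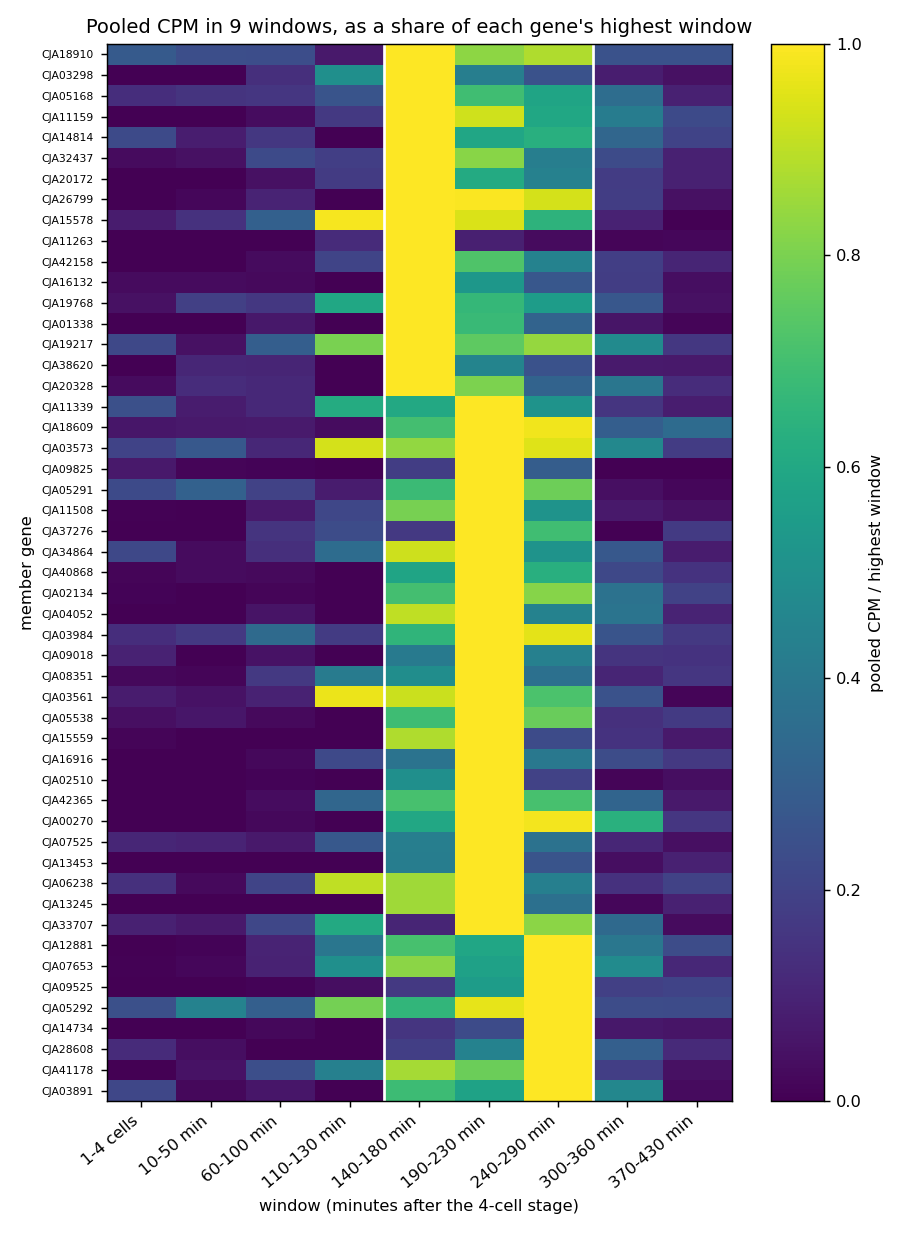
Pooled CPM of each of the 51 genes (rows, ordered by the window of their highest level and then by middle level) in 9 windows of the time course (columns), as a share of the gene's highest window from 0 to 1; white lines mark the library borders. The highest of the 9 windows is 140-180 minutes for 17 genes, 190-230 for 26 and 240-290 for 8, and several genes are already bright at 110-130 minutes, where the pooled depth is 24042 reads.

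The 5 embryos of 10 to 50 minutes and the 3 of 110 to 130 minutes took no part in the choice of the genes. In the younger set 17 of the 51 genes had no read among 872364, and the median level was 4.59 CPM. The middle level was at least 2.5 times that of 10 to 50 minutes for 50 of the 51 genes. Among all 2210 single-peak genes with at least 50 CPM in the middle window 26.3% reached this ratio. Against 110 to 130 minutes 33 of the 51 genes reached it, and 31.6% of the 2210. Those 33 include the 20 members with no read among the 24042 at 110 to 130 minutes. For 4 members the middle level was below that of 110 to 130 minutes. The members' high middle level was selected, so neither comparison with the 2210 genes is an independent one. At 60 to 100 minutes, set against 10 to 50 minutes within the early library, 34 members had a higher pooled level and 13 a lower one, with a median difference of 1.48 on the log2(CPM + 1) scale. Among the 2210 genes 46.97% were higher, with a median difference of -0.02. The rule used the level at 60 to 100 minutes, to which it set an upper limit. It also favoured genes that are low in the first embryos and high later. This comparison with the 2210 genes is therefore not independent of the choice either.

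Members differed in their reads in the first embryos. Those at the low and the high end are described here, and the remaining genes lay between them. In 14 genes there was no read in any of the 8 embryos from 1 cell to 50 minutes, which allows a pooled level of up to 9.60 CPM at 1 to 4 cells and 3.44 CPM at 10 to 50 minutes (3 reads in the window, counting error only). These 14 reached between 63.0 and 397 CPM in the middle window, with a median of 113 CPM. The highest of them was CJA37276, with 749 reads in the middle embryos. Of the 14, 11 had a read at 60 to 100 minutes and 7 at 110 to 130.

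Another 10 genes had at least 50 CPM at 1 to 4 cells. CJA11339 was the highest of these, at 493.3, 277 and 416 CPM in the 1-, 2- and 4-cell embryos. Its pooled level was 133 CPM at 10 to 50 minutes, 200 CPM at 60 to 100 and 1254 CPM in the middle window. CJA18910 had a pooled 339 CPM at 1 to 4 cells, 285 at 10 to 50 and 283 at 60 to 100 minutes, 1052 CPM in the middle and 302 CPM in the late window. In CJA11339 and CJA18910 the middle level stood above a transcript pool seen in the first embryos and still at 60 to 100 minutes. The 10 genes did not share a single course. CJA05168 was steady, at 83.2, 96.3 and 99.8 CPM at 1 to 4 cells, 10 to 50 and 60 to 100 minutes. CJA09825 fell over the same windows, from 99.2 to 21.8 and 14.5 CPM, before a middle level of 793 CPM. CJA34864 fell from 102 to 13.8 CPM and was at 62.3 CPM at 60 to 100 minutes.

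The first test asked whether the genes were already higher just before the middle window, in embryos that took no part in the choice. It set the embryos of 110 to 130 minutes against those of 10 to 50 minutes, all within the early library. The rule favoured genes that are low in the first embryos and high in the middle window. Such genes are likely to be higher in the embryos next to that window, so this test is not independent of the choice. CJA12881, CJA07653, CJA03298 and CJA11508 were higher at 110 to 130 minutes, 4 of the 14 members that passed the filter on low counts, and none was called lower (edgeR quasi-likelihood test, Benjamini-Hochberg adjustment over 1656 genes, threshold 0.05). The background was 2.6% of all tested genes called higher and 3.62% called lower. The median log2 fold change of all tested genes was -0.36, and -0.21 with scaling by library size alone. Only 6 of the 14 passed the filter when the middle embryos were left out of it, so the others entered through the window in which they were chosen as high, and the count of 14 is not read against the background. Among these 6, CJA12881 and CJA07653 were called higher. With no filter, when all 51 were tested, the same 4 were called, and 2.71% of all genes were called in either direction. The split depended on the tool: limma-trend called CJA12881 and CJA07653 higher and CJA05291 and CJA18609 lower, with 14.5% of all genes called in either direction.

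CJA12881 had 5820, 2583 and 16122 CPM at 110, 120 and 130 minutes, against 421, 117, 115, 249 and 297 CPM at 10, 20, 30, 40 and 50 minutes. Each of the 3 later embryos lay above all 5 younger ones, a log2 fold change of 4.86 ± 0.63 (SE, edgeR adjusted p = 2.94e-07). It was at 10.6, 52.7 and 62.4 CPM in the 1-, 2- and 4-cell embryos and between 653 and 4377 CPM at 60 to 100 minutes, so its levels were higher from set to set through the early library. In the middle embryos it ranged from 3747 to 49160 CPM around a median of 15458, and in the late ones from 3196 to 26588 around 4618. Its pooled reads were 27150 in the middle window against 9 at 1 to 4 cells, or 499 times as many per read sequenced, a ratio that the choice of the genes used.

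CJA07653 had a like course, at 1587, 952 and 12226 CPM at 110, 120 and 130 minutes, against 66.7 to 210 CPM at 10 to 50 minutes. Its log2 fold change was 4.87 ± 0.71 (SE, edgeR adjusted p = 4.35e-06). In the middle embryos it ranged from 1542 to 28793 CPM with a median of 6653. Its 3′ end peak is at location 960 of its gene and that of CJA12881 at 940 of its own, counted from an origin that the file does not state. Without sequences it was not checked whether these genes or any others share reads.

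CJA03298 and CJA11508 rest on fewer reads. CJA03298 had 0, 7 and 7 reads at 110, 120 and 130 minutes, or 0, 476 and 940 CPM, against 3 reads in the 5 embryos of 10 to 50 minutes (log2 fold change 6.40 ± 1.08 SE, edgeR adjusted p = 8.92e-05). CJA11508 had 3 reads at 110 to 130 minutes, all in the embryo at 120, and none at 10 to 50 (edgeR adjusted p = 0.035). Without the embryo at 130 minutes the count of members called fell to 2, CJA12881 and CJA03298 (CJA07653 had an edgeR adjusted p of 0.068), and without that at 120 minutes CJA11508 had no read in either window. The adjusted p of CJA11508 was 0.073, 0.075 and 0.063 in edgeR without the embryo at 30, 50 or 130 minutes. By limma-trend the adjusted p was 0.10 for CJA03298 and 0.46 for CJA11508.

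**Figure D3:**
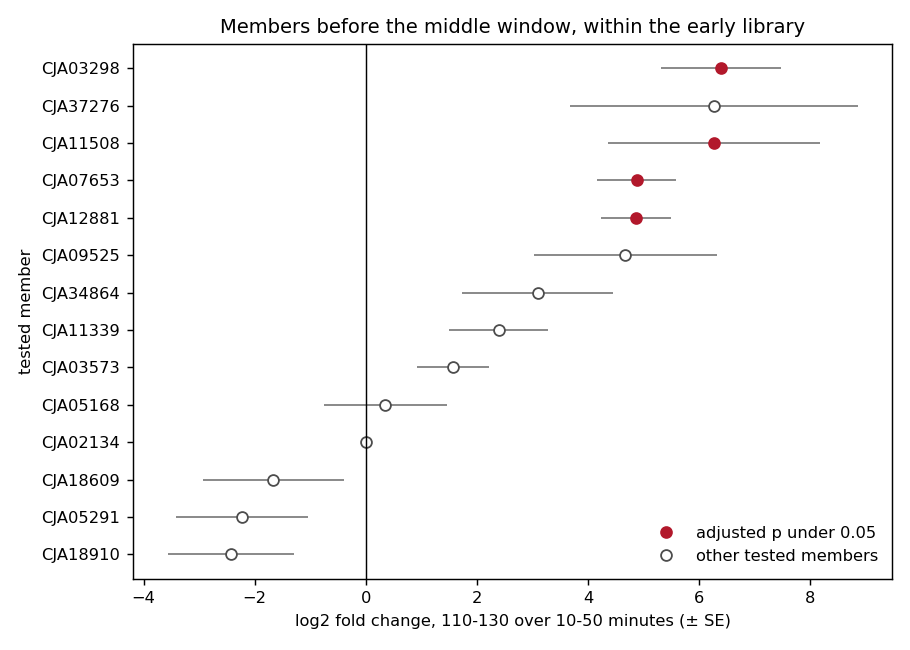
Fitted log2 fold change of the 14 tested genes, 110-130 over 10-50 minutes, with its SE as a bar; filled points passed an adjusted p of 0.05. CJA12881, CJA07653, CJA03298 and CJA11508 passed, all to the right of 0, while CJA37276 at 6.27 ± 2.59 did not, and CJA02134, with no read in either window, is set at 0 without a bar.

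Within the middle window the next test asked for a steady rise or fall over its 16 embryos. Of the 14 tested members 1 was called: CJA03298 fell by 0.17 ± 0.04 (SE) on the log2 scale per 10 minutes (edgeR adjusted p = 0.0027). Of all tested genes 4.83% fell and 12.9% rose. The rule asked for low levels before and after the window, so slopes inside it are not independent of the choice. Only 6 of the 14 passed the filter without the middle embryos, so the count is not read against these shares. CJA03298 was not among these 6. It was at 1521 and 1293 CPM at 140 and 150 minutes, where the level of the whole course was highest, at 0 in the shallow embryo at 160 minutes, at 700, 430 and 415 CPM at 200, 210 and 220 minutes and at 78.2, 233 and 126 CPM at 270, 280 and 290 minutes. Before the border it had been at 54.4 to 550 CPM at 60 to 100 minutes. By limma-trend the adjusted p of this slope was 0.38.

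CJA11263 had the highest of the smallest ratios when a set with no read counts as 3 reads, at 11.9, which is the middle over the late window. No read of it was seen in the 13 embryos up to 100 minutes. It was at 68.0 and 134 CPM at 120 and 130 minutes (1 read each), at 586, 956, 582 and 730 CPM at 140, 150, 160 and 170 minutes and at 0, 82.1, 31.8 and 43.0 CPM at 180, 190, 200 and 210 minutes. The embryo at 180 minutes is shallow, with 1 read worth 378 CPM. The pooled level was 677 CPM at 140 to 180, 59.0 at 190 to 230 and 20.4 at 240 to 290 minutes. It did not pass the filter on low counts. With no filter its slope was -0.46 per 10 minutes on the log2 scale (edgeR adjusted p = 1.35e-08 over 3955 genes). In the late embryos it had 18 reads, 4 of them in the shallow embryo at 310 minutes, where they amount to 1381 CPM. CJA02510 followed with a smallest ratio of at least 11.2, against 1 to 4 cells, where it had no read. It had 203 reads in the middle embryos and 9 in the late ones.

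A rise and fall within the window was asked for with a squared term of position. No member passed in edgeR (0 of 14), nor in limma-trend and DESeq2 (0 of 14). Of all tested genes 0.181% were called with either curvature in edgeR. Only 6 of the 14 passed the filter without the middle embryos, so counts of the 14 are not read against shares of all genes. At an unadjusted edgeR p under 0.05 were 5 of the 14, all with the sign of a rise followed by a fall, and 100 of all 1656 tested genes with either sign. The rule asked for low levels before and after the window, which favours a rise and fall inside it. The shared sign is therefore not independent of the choice. CJA09825, named here after its values were seen, did not pass the filter on low counts. It was at 52.4, 337 and 1163 CPM at 140, 150 and 160 minutes, at 2217, 1555, 1665 and 1469 CPM at 190, 200, 210 and 220 minutes, at 612 and 1588 CPM at 230 and 240 minutes, and at 78.2, 26.9 and 31.4 CPM at 270, 280 and 290 minutes. The middle library held 1498 reads of it against 3 in the late library, 429 times as many per read sequenced, again a ratio that the choice used. With no filter the squared term was -0.097 (edgeR adjusted p = 2.77e-08) and without the shallow embryos, when 29 members could be tested, -0.095 (edgeR adjusted p = 2.13e-05). Its low values at both ends and the high values between them lie inside a single library.

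**Figure D4:**
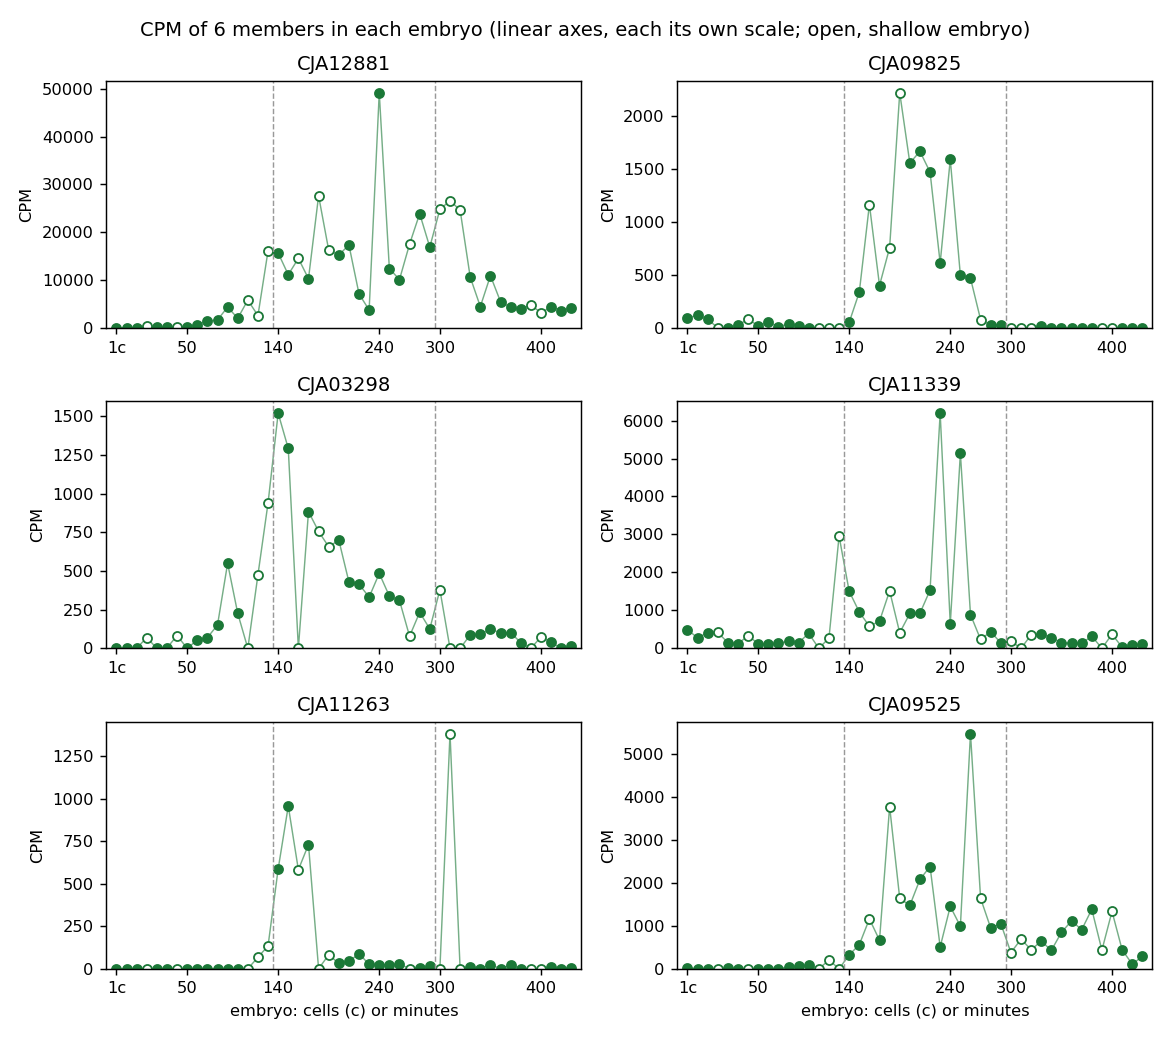
CPM of 6 genes in each of the 46 embryos (linear axes from 0, each gene on its own scale; open points are shallow embryos; dashed lines are the library borders). CJA11263 is high from 140 to 170 minutes, CJA03298 descends from 1521 CPM at 140 minutes, CJA09825 is low at both ends of the middle library and high between them, and CJA12881, CJA11339 and CJA09525 each have single embryos far above their neighbours, at 240, at 230 and 250, and at 260 minutes.

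By the window of the highest pooled level, 17 genes peaked at 140 to 180 minutes, led by CJA18910 (1197 CPM), 26 at 190 to 230, led by CJA11339 (1753 CPM), and 8 at 240 to 290, led by CJA12881 (17963 CPM). At 190 to 230 minutes 30 of the 51 had a higher pooled level than at 140 to 180 and 21 a lower one, and 60.05% of the 2210 genes were higher. At 240 to 290 minutes 40 were lower than at 190 to 230 and 11 higher, with a median difference of -0.53 on the log2(CPM + 1) scale, where 51.99% of the 2210 genes were lower with a median of -0.03. The rule asked for low levels before and after the middle window, which favours lower levels at its ends. Neither comparison with the 2210 genes is therefore independent of the choice. Some of the peaks rest on single embryos. CJA11339 reached 6193 and 5139 CPM at 230 and 250 minutes, against at most 1534 CPM in the other middle embryos. CJA14734 had 74.9% of its middle reads in the embryo at 260 minutes, which holds 24.1% of the library's middle reads. CJA09525 was at 5485 CPM there and at 323 to 3784 CPM in the other middle embryos.

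The last comparison followed the genes through the late library. CJA07653 and CJA12881 fell with time within it, by 0.29 ± 0.06 and by 0.17 ± 0.05 (SE) on the log2 scale per 10 minutes (edgeR adjusted p = 3.73e-04 and 0.016). These were 2 of 14 tested members, and 3.38% of all tested genes fell. Only 6 of the 14, CJA07653 and CJA12881 among them, passed the filter without the middle embryos. Counts of the 14 are therefore not read against shares of all genes. The rule required a low pooled late level, which the deep later embryos dominate, so the choice of the genes favours a falling late slope and these slopes are not independent of it. CJA07653 was at 17235, 9669, 11387 and 7593 CPM at 300, 310, 320 and 330 minutes and between 446 and 5123 CPM afterwards. The difference between the late and the middle slope, a comparison added after the data were seen, was -0.35 ± 0.07 for CJA07653 and -0.25 ± 0.06 for CJA12881 per 10 minutes (SE, edgeR adjusted p = 6.71e-04 and 0.0059), with 5.74% of all genes lower in this difference. The first 3 late embryos are shallow, and without all 14 shallow embryos the late slope was -0.25 for CJA07653 and -0.094 for CJA12881 (edgeR adjusted p = 0.062 and 0.56), and the difference of slopes -0.28 and -0.15 (edgeR adjusted p = 0.084 and 0.34). Without only the embryos at 300, 310 and 320 minutes, a fit added after the data were seen, CJA07653 still fell, by 0.28 (edgeR adjusted p = 0.015), while CJA12881 had a slope of -0.12 (edgeR adjusted p = 0.36). The differences of slopes were then -0.32 and -0.19 (edgeR adjusted p = 0.014 and 0.15). With no filter on low counts the edgeR adjusted p of CJA12881 was 0.080 for the late slope and 0.061 for the difference. The slope of CJA12881 had an edgeR adjusted p of 0.052, 0.059 and 0.053 without the embryo at 320, 330 or 410 minutes, which left 1 member called, and without that at 400 minutes 4 were called. Of all 51 genes, 40 had a lower pooled level at 370 to 430 than at 300 to 360 minutes and 11 a higher one, with a median difference of -0.92 on the log2(CPM + 1) scale, where 60.3% of the 2210 genes were lower with a median of -0.16. This comparison is not independent of the choice either. CJA09525 stood at 673 CPM at 370 to 430 and at 631 CPM at 300 to 360 minutes.

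In the location of the 3′ end peak within the gene the members did not stand apart: the median was 2768 with quartiles of 836.5 and 5380, beside 2724 with quartiles of 945 and 5231 in the other 3341 single-peak genes. The single listed peak held between 62.6% and 99.6% of a member's reads, with a median of 94.9%. Another 7 genes with more than 1 peak met the same levels and were not included.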

How the data were processed

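Per the labels' protocols, single embryos were sequenced by CEL-Seq in 3 pooled libraries. The authors' deposited table holds read counts, whole numbers for each 3′ end peak and in total for each gene, not normalized. The tools in the submitters' processing notes are HTSeq 0.5.4p3, Bowtie2 2.1.0 and CASAVA 1.8; genome build, annotation and peak calling are not given in the sources used. No molecular identifiers are named, so intervals and limits cover counting error only. Columns were tied to stages through the deposited sheet of embryos.

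Pooled CPM is the summed count of a gene over the summed counts of all gene totals. Gene totals were fitted with edgeR 4.0.16 in R 4.3.3 (quasi-likelihood F test, TMM scaling, filterByExpr by library), which left 1656 genes with 83.8% of the reads, 14 of them members. Fits shared the spread over 46 embryos and used 9 windows, or a slope per library on embryo position with a squared term for curvature. Tests are two-sided. The embryo is the replicate, with 1 embryo at each time, so no age is replicated. The p-values rest on the spread of embryos around a window mean or a fitted course, which includes change with age. The SE is the coefficient divided by the root of its F value. Alternatives used limma 3.58.1 and DESeq2 1.42.0. The fits were tested on simulated data with 200 changed genes. For 110-130 against 10-50 minutes they recovered 18% of log2 changes of 2 and 84% of 5. Of these calls 7.69% and 9.68% were false. Slopes of 0.15 per 10 minutes were recovered in 58.5% in the middle and in 16% in the late window. Those of 0.3 were recovered in 100% and 94.5%.

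The members, lists and tests were chosen with earlier results of these data known. Named are the 2 members with the highest middle level, the 2 with the highest smallest ratio, the 2 genes nearest the limit on either side, at most 2 called genes per direction and test, and the leading gene of each peak window. CJA07653 and CJA12881 in the test of 110 to 130 minutes, CJA09825, CJA37276, CJA14734, CJA02134, CJA05168, CJA05291, CJA18609, CJA34864 and CJA09525 were added after their values were seen. No table of gene names was used, so marker lists could not be matched and the cell make-up of the embryos was not checked.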

Additional observations from a re-analysis of the deposited data

Results flagged for a closer look

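In windows of 5 to 7 embryos, 42 sets of values were examined for a single embryo far from the others, and 6 stood out. The limit would flag about 1 in 20 of independent sets of normally distributed values. These sets overlap, since the pair is part of the 51 genes, and some values rest on few reads. The number flagged is therefore not read against that rate. The embryo at 240 minutes had 9.10% of its reads in the 51 genes, against 3.13% to 4.03% in the other 5 embryos of 240 to 290 minutes. It had 4.92% in CJA12881 and 2.88% in CJA07653, against at most 2.39% and 0.923% in those others. This embryo has 82486 reads, so it is not a shallow one. The embryo at 230 minutes had 2.37% of its reads in the 49 genes other than this pair, against 1.497% to 1.68% in the other 4 embryos of 190 to 230 minutes. CJA03298 was at 379 CPM at 300 minutes, which is 2 reads in 5280, and CJA11508 at 223 CPM at 400 minutes, which is 3 reads in 13455.

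The course of CJA07653 and CJA12881 differed between the late and the middle library in the test of the slopes, by -0.35 and -0.25 on the log2 scale per 10 minutes. Without all 14 shallow embryos they were -0.28 and -0.15 (edgeR adjusted p = 0.084 and 0.34). Without only those at 300 to 320 minutes they were -0.32 and -0.19 (edgeR adjusted p = 0.014 and 0.15). The rule used the summed late level, so these slopes are not independent of the choice of the genes.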

How the results depend on the processing

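No paired analysis was possible because each library holds other times and no replicate numbers are shared. The 51 genes became 96 with a 2-fold and 22 with a 4-fold limit. With every embryo weighted equally 58 genes met the rule, 33 of them among the 51, and without shallow embryos 52, which held all 51. Leaving out each of the 38 embryos of the rule gave 40 to 63 genes, of which 38 to 51 were the same, and 30 genes were kept each time. The largest loss followed leaving out the embryo at 70 minutes. For 110-130 against 10-50 minutes, leaving out each of 8 embryos gave 2 to 4 members called, with 0.955% to 6.6% of all genes called. The fit without shallow embryos could not be made, since all 3 embryos of 110 to 130 minutes are shallow. limma-trend called 4 members, 2 higher and 2 lower, with 14.5% of all genes called against 6.22%: CJA05291 and CJA18609 were lower (log2 fold change -2.49 and -1.95, adjusted p = 0.016 and 0.045), and CJA03298 and CJA11508 did not pass (adjusted p = 0.10 and 0.46). For the slope in the middle window the count was 2 of 51 with no filter (12.6% of all genes) and 0 with limma-trend (12%). The reported fit called 17.7% of all genes in either direction, and the count was 1 when each middle embryo was left out. For curvature it was 1 with no filter (0.177% of all genes), 1 without shallow embryos (0.116%) and 1 without the embryos at 330 and 340 minutes (0.263%). Each time this was CJA09825, and the count was 0 when each middle embryo was left out. For the late slope it was 6 with library size alone (10.6% of all genes), 8 of 51 with no filter (8.32%) and 5 with DESeq2 (10.8%), all lower, against 7.31% of all genes in the reported fit, and 1 to 4 when each late embryo was left out, with 1 member higher without the embryo at 380 and without that at 420 minutes. Without shallow embryos it was 2 (3.59% of all genes), neither of them CJA07653 or CJA12881. For the difference of slopes it was 5 of 51 with no filter (4.55% of all genes) and 1 without shallow embryos (4.52%), against 7.19% of all genes in the reported fit. It was 2 to 3 when each late embryo was left out, with 1 member higher without the embryo at 380 minutes. The tested slopes and fold changes of CJA03298, CJA05291, CJA07653, CJA11508, CJA12881, CJA18609 and CJA37276 named in the text kept their sign in the alternatives run, apart from CJA11508 and CJA37276 without the embryo at 120 minutes, where the fold change was 0. Other named genes were not followed through the alternatives. Alternatives that leave out 300 to 320 minutes, that leave out 330 and 340 minutes, other than for the late slope, and single embryos, other than for 110 to 130 minutes, were chosen after seeing the data. Depth limits both flanks: 1 read in the pooled embryos is 51.5 CPM at 300 to 320 minutes and 41.6 CPM at 110 to 130.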

Other observations

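The embryos at 230 and 250 minutes were both high in some of the 51 genes. CJA11508 was at 1516 and 1014 CPM in these embryos, against at most 599 CPM in the other 14 middle embryos. CJA11339 was at 6193 and 5139 CPM, as given above. The sum of the 49 genes was 2.37% and 2.06% of their reads, against 1.30% in the embryo at 240 minutes between them. That embryo had the highest CJA12881 of the whole course, 49160 CPM, while the embryo at 230 minutes had 3747 CPM, the lowest of the middle window. Neither is shallow, with 82486 reads at 240 and 78473 at 230 minutes.

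The end of the high level differed among genes. CJA11263 had left its high level by 190 minutes and CJA09825 by 270 minutes. CJA12881 was at 24642 CPM in the shallow embryo at 320 minutes, but had varied from 3747 to 49160 CPM in the middle embryos. CJA09525 was still at 108 to 1387 CPM in the late embryos.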
